A study of Mus musculus with 12 samples.

Results

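A set of 9 genes of the Hedgehog pathway was followed in mouse gastruloids, and all 9 were found by symbol among the 38911 genes of the files. They are *Ptch1*, *Boc*, *Cdon* and *Gas1*, which receive the ligand, *Smo*, *Gli1*, *Gli2* and *Gli3*, which carry the signal to the nucleus, and *Hhip*, an inhibitor. Gastruloids are aggregates of embryonic stem (ES) cells that elongate and form the germ layers in culture. They were made from E14TG2a, a mouse ES cell line, were treated from day 3, and were harvested on day 4 for sequencing of polyA RNA. The 1X glucose group received 21.25 mM glucose for this last day, the 0X glucose group 0 mM and the 3X glucose group 63.75 mM. The 2-DG group received 5 mM 2-DG (2-deoxy-D-glucose, a glucose analog that hexokinase can phosphorylate). The labels give the medium of the 2-DG group 1X glucose, and a separate vehicle control was not analysed here. All groups share the line, ES cells kept in 2iLIF (a Wnt agonist and an ERK pathway inhibitor with LIF), and the pulse of a Wnt pathway activator on day 2. Each group holds 3 libraries, 1 from each of ES cell passages 13, 15 and 16, and each library is a pool of gastruloids from 1 plate and treatment. The replicates are therefore passages of 1 line, and p-values between groups measure the spread between them.

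Hedgehog ligands (Shh, Ihh, Dhh) bind Ptch1, which in their absence holds the membrane protein Smo inactive at the primary cilium. Boc, Cdon and Gas1 are co-receptors that help Ptch1 to bind ligand, and their genes are known to be repressed where signaling is strong. Active Smo turns the Gli factors from repressors to activators, with Gli2 as the main activator, Gli3 as the main repressor and Gli1 as an amplifier that is itself a target. *Ptch1*, *Gli1* and *Hhip* are direct targets that are commonly read as a measure of signaling. In the embryo, Shh from the node, notochord and floor plate patterns the neural tube and the somites, and Ihh and Shh act in the early gut and lateral mesoderm.

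RefSeq promoters (GRCm38.p6, 250 bases before to 50 after a start of the gene) were at hand for 7 of the 9 genes. The consensus bound by Gli factors, GACCACCCA, was searched on both strands and was in 0 of the 7, against 0.253% of 32851 promoters. Its core CCACCC, which lies within the consensus, was in 4 of the 7 (*Gli2*, *Gli3*, *Hhip* and *Smo*) and in 31.5% of all promoters. Shown first is *Ptch1*, the target gene with the highest counts among the members, at chr13:63565686-63565985 on the minus strand. It is followed by *Hhip*, the other target with an entry, at chr8:80057959-80058258 and by *Gli2*, which holds the core at 2 places, at chr1:119053570-119053869, both on the minus strand. Capitals mark the core on either strand, and all 3 are written 5′ to 3′.
Ptch1: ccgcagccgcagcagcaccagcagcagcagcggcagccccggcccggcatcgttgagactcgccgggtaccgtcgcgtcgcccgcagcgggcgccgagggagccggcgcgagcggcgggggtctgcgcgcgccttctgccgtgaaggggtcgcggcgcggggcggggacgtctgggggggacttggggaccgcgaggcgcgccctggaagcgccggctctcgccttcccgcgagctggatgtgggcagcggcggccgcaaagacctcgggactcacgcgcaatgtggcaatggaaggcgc
Hhip: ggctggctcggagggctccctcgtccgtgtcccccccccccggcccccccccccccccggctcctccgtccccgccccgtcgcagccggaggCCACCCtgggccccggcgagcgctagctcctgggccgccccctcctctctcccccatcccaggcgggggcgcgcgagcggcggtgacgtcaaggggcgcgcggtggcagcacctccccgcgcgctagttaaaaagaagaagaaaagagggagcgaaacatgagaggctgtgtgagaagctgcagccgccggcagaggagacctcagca
Gli2: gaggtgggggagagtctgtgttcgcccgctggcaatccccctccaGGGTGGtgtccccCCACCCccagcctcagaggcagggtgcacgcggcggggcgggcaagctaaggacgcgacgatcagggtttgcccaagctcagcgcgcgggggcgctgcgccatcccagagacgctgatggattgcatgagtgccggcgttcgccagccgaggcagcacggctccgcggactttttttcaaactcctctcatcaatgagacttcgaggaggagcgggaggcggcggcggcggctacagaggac
The 300 bases of *Ptch1* hold neither motif, and these matches say nothing on binding, which was not measured.

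The total was 31902471 to 45956080 counts per library, and edgeR's filter on low counts kept 16966 genes, all 9 members among them. Levels are CPM, the counts of a gene scaled to the library total with edgeR's TMM factors. Positions are RefSeq gene spans in GRCm38.p6. Calls were made at an adjusted p (Benjamini-Hochberg) under 0.05 in edgeR's quasi-likelihood test over all genes tested. Because each passage is in every group, the fit with the passage as a block is given beside a member or a list where it changes the calls. Marker genes of presomitic and paraxial mesoderm (9 genes, 942 to 2133 CPM in sum), primitive streak (7 genes, 148 to 538 CPM) and neural progenitors (8 genes, 152 to 476 CPM) were present in every library. Those of the node, notochord and floor plate (7 genes, the tissues that make Shh) summed to 7.42 to 11.4 CPM. In bulk RNA, fewer cells of a type and less RNA per cell cannot be told apart.

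Compared per kilobase of the longest coding transcript, *Smo* had the highest level of the 9 genes, with 64.7 ± 5.94 CPM per kb (SD, n = 12 libraries). *Gas1* followed with 28.3 ± 7.33 CPM per kb, and both stood apart from their neighbors in all 12 libraries with no overlap of ranges. *Ptch1* (11.7 ± 1.48 CPM per kb), *Gli3* (10.5 ± 1.198) and *Boc* (9.18 ± 1.31) were next, with overlapping ranges, and each step of this order was seen in 11 of 12 libraries. *Cdon* (6.03 ± 1.38) and *Gli2* (5.89 ± 1.36) could not be ranked, since *Cdon* was higher in 8 libraries and lower in 4. *Gli1* had 3.93 ± 1.52 CPM per kb and lay below *Gli2* in 9 of 12 libraries. *Hhip* was lowest, with 0.0833 ± 0.0371 CPM per kb and 8 to 47 counts per library. The receptor, the transducer and all 3 Gli genes were thus measured well above the counting limit, and *Hhip* was not far from it. By group means the order was the same in the 4 groups, except that *Gli2* lay above *Cdon* in 1X and 3X glucose, as the plot of levels per length shows.

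**Figure D1:**
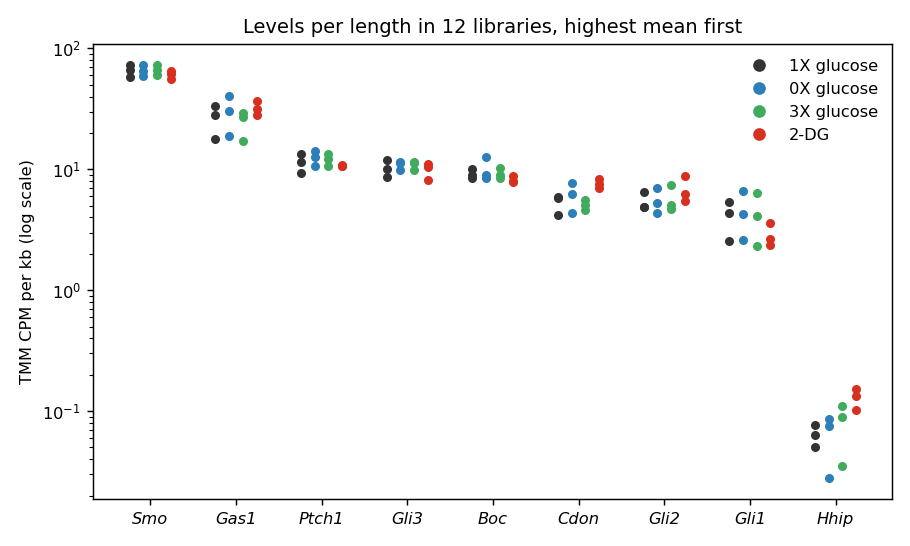
Level of each gene per kilobase in the 12 libraries, as TMM CPM per kb on a log scale, with a point per library colored by group and the genes ordered by their mean over 12 libraries. *Smo* and *Gas1* lie above the other 7 genes and *Hhip* lies far below them.

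Whether 2-DG changed these genes was asked first against 1X glucose. None of the 9 was called (0 of 9, where 17.6% of the 16966 genes were called, 9.12% higher and 8.51% lower). Their median log2 fold change was −0.05, and that of all genes 0.0023. *Cdon* and *Hhip* had estimates above 0 with non-overlapping groups (35.4% of all genes tested did not overlap), and both had an unadjusted p under 0.05, as 31.7% of genes did. With the passage as a block, 4 of 9 were called, where the block called 41.3% of all genes (21.1% higher and 20.2% lower). *Cdon*, *Gli2* and *Hhip* were then higher in 2-DG and *Smo* was lower. DESeq2 called *Cdon* alone (adjusted p = 0.0316), where it called 22.6% of genes.

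*Cdon* (chr9:35421528-35507652, 11 RefSeq transcripts) was the co-receptor with the clearest difference. It had 31.4, 44.2 and 43.4 CPM in 1X glucose and 57.1, 62.7 and 52.3 CPM in 2-DG, in passages 13, 15 and 16. Every 2-DG library was above every 1X glucose library and above the 0X and 3X libraries of its own passage. The log2 fold change was 0.53 (standard error 0.19, 95% interval 0.12 to 0.95, edgeR adjusted p = 0.0786), and with the passage as a block it was 0.55 (adjusted p = 0.00297). Within the passages it was 0.86, 0.50 and 0.27.

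*Gas1* (chr13:60174405-60177535, 1 transcript), a co-receptor anchored to the membrane by a lipid, had 52.5, 99.4 and 83.8 CPM in 1X glucose and 94.1, 108.4 and 83.6 CPM in 2-DG. The groups overlapped, and the difference was carried by passage 13, at 0.84 on the log2 scale, against 0.12 and −0.0031 in passages 15 and 16. The fitted log2 fold change was 0.28 (standard error 0.30, edgeR adjusted p = 0.583). *Boc* (chr16:44485045-44558870, 1 transcript), the co-receptor most like Cdon in its domains, had 37.98, 44.9 and 39.8 CPM in 1X glucose and 35.8, 39.4 and 35.1 CPM in 2-DG. It was lower in 2-DG in each passage, but not beyond the spread between libraries (log2 fold change −0.15, standard error 0.14, edgeR adjusted p = 0.517, 0.127 with the block). The co-receptor genes thus did not share a direction, and only the estimates of *Cdon* and *Gas1* were above 0.

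*Ptch1* (chr13:63508328-63573460, 2 transcripts), the ligand-binding receptor, had 72.2, 88.4 and 104.2 CPM in 1X glucose. In 2-DG it had 83.2, 82.0 and 81.9 CPM, within the range of 1X glucose. The SD over passages was 16 CPM in 1X glucose, 13.3 CPM in 0X glucose and 10.7 CPM in 3X glucose, and 0.701 CPM in 2-DG (n = 3 each). The log2 fold change of the means was −0.10 (standard error 0.135, 95% interval −0.40 to 0.20, edgeR adjusted p = 0.678), which hides estimates of 0.20, −0.11 and −0.35 within passages 13, 15 and 16.

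*Smo* (chr6:29735497-29761366, 2 transcripts), which passes the signal on, had 219.6, 250.3 and 277.4 CPM in 1X glucose and 211.0, 231.8 and 247.5 CPM in 2-DG. It was lower in 2-DG in 3 of 3 passages by a small amount (log2 fold change −0.11, standard error 0.10, edgeR adjusted p = 0.512). With the block this difference was called (−0.11, standard error 0.029, adjusted p = 0.0103). *Gli2* (chr1:118834061-119054405, 4 transcripts), the main activator, had 43.4, 32.3 and 32.1 CPM in 1X glucose and 58.8, 41.8 and 36.5 CPM in 2-DG. Each 2-DG library was above the 3 glucose libraries of its passage, although the groups as a whole overlapped. The log2 fold change was 0.35 (standard error 0.24, edgeR adjusted p = 0.361), and with the block it was called at 0.33 (standard error 0.055, adjusted p = 0.000854).

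*Gli3* (chr13:15463723-15730026, 3 transcripts), the main repressor, had 70.5, 82.7 and 97.6 CPM in 1X glucose and 66.4, 85.4 and 89.95 CPM in 2-DG. These libraries overlapped, with a log2 fold change of −0.05 (standard error 0.13, 95% interval −0.35 to 0.245, edgeR adjusted p = 0.838). *Gli1* (chr10:127329882-127341579, 1 transcript), the target that amplifies the response, had 10.4, 17.7 and 21.6 CPM in 1X glucose. In 2-DG it had 14.5, 9.64 and 10.8 CPM, so that 2-DG was higher in passage 13 and lower in the other 2 passages. The fitted log2 fold change of −0.51 was within this spread (standard error 0.41, 95% interval −1.41 to 0.40, edgeR adjusted p = 0.449, 0.328 with the block).

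*Hhip* (chr8:79965850-80058060, 2 transcripts), a membrane protein that binds and sequesters the ligands, had 21, 22 and 32 counts in 1X glucose and 47, 34 and 45 counts in 2-DG. As levels these were 0.461, 0.579 and 0.691 CPM against 1.38, 0.926 and 1.199 CPM. Groups did not overlap, and the log2 fold change was 1.01 (standard error 0.43, 95% interval 0.062 to 1.96, edgeR adjusted p = 0.134). With the block it was called at 1.04 (adjusted p = 0.0367), higher in 3 of 3 passages. Of the 3 direct targets, *Hhip* therefore had an estimate above 0 while those of *Ptch1* and *Gli1* were below 0. The plot of levels by library shows the values of all 9 genes.

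**Figure D2:**
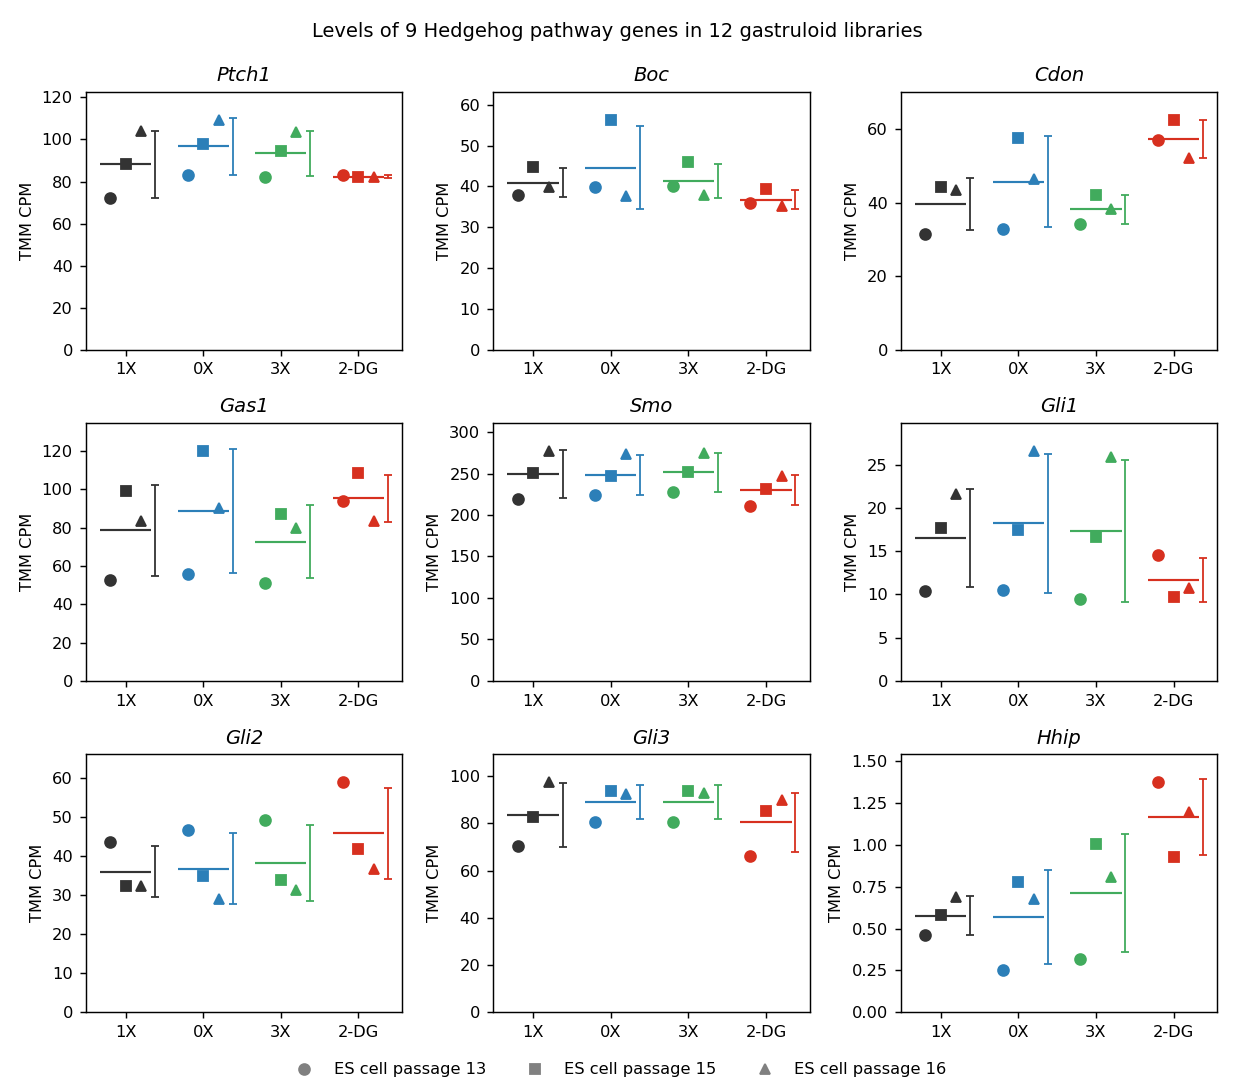
TMM CPM of each of the 9 genes by group, with circles, squares and triangles for ES cell passages 13, 15 and 16, a line at the group mean and a bar of ± 1 SD beside it (n = 3). *Cdon* and *Hhip* in 2-DG lie above 1X glucose in every library, and the 3 *Ptch1* libraries of 2-DG lie together at 81.9 to 83.2 CPM.

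**Figure D3:**
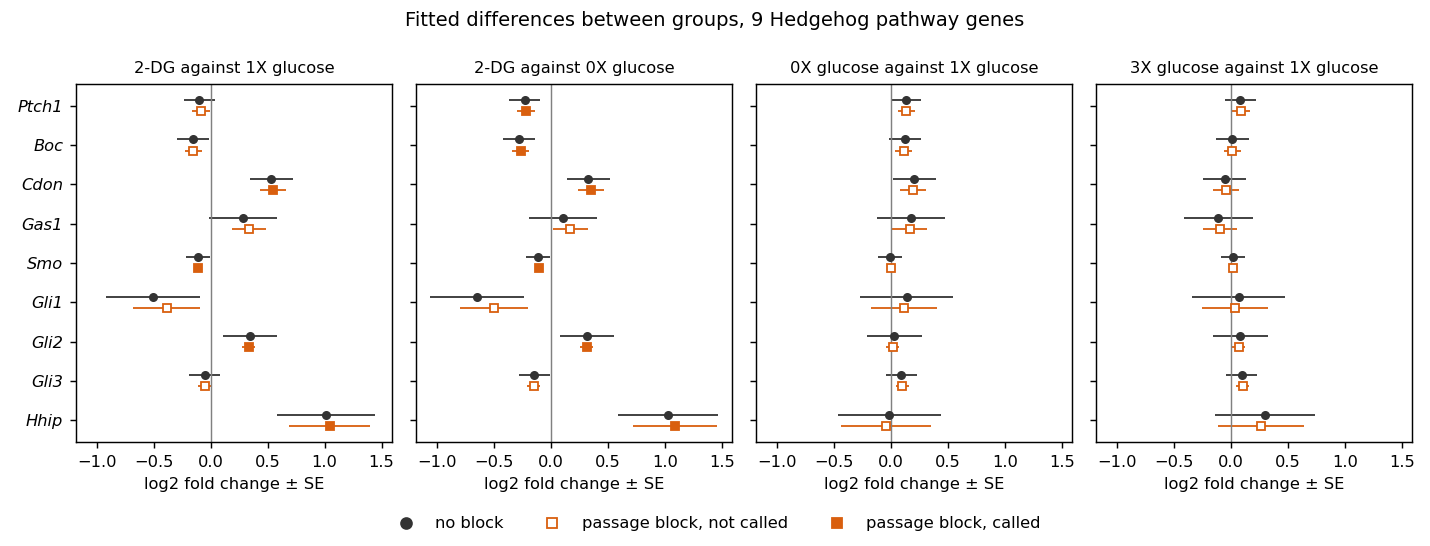
Log2 fold change with its standard error in 4 comparisons, from edgeR without a block (circles) and with the passage as a block (squares, filled where called). Standard errors shrink with the block, and filled squares appear in both comparisons of 2-DG and in neither comparison of glucose levels.

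The next question was whether the glucose concentration itself moved these genes. In 0X against 1X glucose, 0 of 9 were called, where 0.0118% of genes were (2 of 16966), and in 3X against 1X glucose 0 of 9 were called, where 0 of 16966 genes were. At an unadjusted p under 0.05 there were 0 of the 9 in both, against 306 genes (1.8%) and 178 genes (1.05%). DESeq2 also called 0 of 9 in both, where it called 12 genes (0.0708%) and 2 genes (0.0118%). No member's groups were apart in either comparison, where 5.63% and 4.47% of genes did not overlap. All 18 edgeR adjusted p-values of the members were 1, and the lowest with the block was 0.607 (where the block called 0.0177% of genes, all lower, in 0X glucose and 0 in 3X glucose). The estimates in 0X glucose ran from −0.02 for *Hhip* to 0.20 for *Cdon*, and in 3X glucose from −0.11 for *Gas1* to 0.30 for *Hhip*. For *Smo*, the interval of the difference was −0.24 to 0.23 in 0X glucose and −0.22 to 0.24 in 3X glucose. For *Ptch1* it was −0.17 to 0.43 and −0.22 to 0.38. For *Gli1* it was −0.76 to 1.04 and −0.83 to 0.97, so a doubling of *Gli1* in 0X glucose lies inside its interval.

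2-DG and glucose withdrawal were also compared directly. None of the 9 was called between 2-DG and 0X glucose (where 18.9% of genes were, 9.86% higher and 9.04% lower), and DESeq2 called 0 of 9 (24.2% of genes). *Hhip* alone had an unadjusted p under 0.05 (33% of genes) and groups that did not overlap (37.9% of genes). With the block 6 of 9 were called, where 43.1% of genes were, 21.5% higher and 21.5% lower. Both comparisons of 2-DG rest on the same 2-DG libraries. *Cdon* (0.35, adjusted p = 0.0271), *Gli2* (0.32, adjusted p = 0.00117) and *Hhip* (1.09, adjusted p = 0.0362) were called higher in 2-DG in edgeR's fit with the block. By CPM, each of them was higher in 3 of 3 passages. *Smo* (−0.11, adjusted p = 0.0121) and *Boc* (−0.26, adjusted p = 0.0159) were called lower in the same fit, and were lower by CPM in 3 of 3 passages. *Ptch1* was also called lower in the fit with the block (−0.22, adjusted p = 0.0419). By CPM it was lower in passages 15 and 16, while in passage 13 it differed by 0.0055 on the log2 scale. The 0X glucose library of passage 15 had the highest *Boc* of the 12 libraries (56.4 CPM, with 35.1 to 45.9 in the others). *Hhip* had 8, 26 and 22 counts in 0X glucose.

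The passages of the ES cells were compared next. With the group as a covariate, 7 of 9 differed between passages in edgeR's F test, all but *Gli1* (adjusted p = 0.0527) and *Hhip* (adjusted p = 0.28), where 46.2% of genes differed. Within the 3 glucose groups, all 9 differed, where 47.4% of genes did, with adjusted p from 3.82e-06 for *Gas1* to 0.0236 for *Hhip* (edgeR F test over 9 libraries, chosen after the values were seen). Each passage is 1 culture, and its libraries are not replicates of that passage, so that these p-values measure the spread between libraries of 1 culture. The passage cannot be told apart from anything else that its libraries share.

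*Gli1* had the largest ratio between passages among the 9 genes. It was 9.43 to 10.5 CPM in the 3 glucose libraries of passage 13, 16.7 to 17.7 CPM in those of passage 15 and 21.6 to 26.6 CPM in those of passage 16. These ranges did not overlap, and the mean of passage 16 was 2.44 times that of passage 13. *Ptch1* took the same order, at 72.2 to 82.9 CPM, 88.4 to 97.6 CPM and 103.5 to 109.5 CPM, a ratio of 1.34 between passages 16 and 13. *Smo* did so too, at 219.6 to 227.3 CPM, 246.8 to 252.2 CPM and 273.4 to 277.4 CPM. *Cdon*, *Gas1*, *Gli3* and *Hhip* were lowest in passage 13, with no overlap with the other passages, but did not separate passages 15 and 16. For *Gas1* the mean of passage 15 was 1.93 times that of passage 13. *Gli2* ran the other way, with 43.4 to 49.2 CPM in passage 13 and 28.8 to 34.7 CPM in passages 15 and 16. *Boc* was higher in passage 15, at 44.9 to 56.4 CPM, than in passages 13 and 16, at 37.6 to 39.98 CPM.

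Marker genes moved with the passage as well. The presomitic and paraxial mesoderm markers summed to 942 to 1127 CPM in the glucose libraries of passage 13 and 1692 to 2133 CPM in those of passages 15 and 16, and 9 of 9 differed between passages. Neural progenitor markers summed to 414 to 476 CPM in passage 13 and 152 to 218 CPM in passages 15 and 16, with 8 of 8 differing. Endoderm markers summed to 9.84 to 13.7 CPM in the glucose libraries of passage 13 and 73.0 to 203 CPM in those of passages 15 and 16. For primitive streak markers the sums were 528 to 538 CPM and 239 to 354 CPM, and for endothelium and blood 2.06 to 2.30 CPM and 4.51 to 14.6 CPM. In these lists 4 of 5, 6 of 7 and 4 of 5 genes differed, in that order. The node, notochord and floor plate markers summed to 7.42 to 11.4 CPM in all glucose libraries, with 3 of 7 differing. *Chrd* was the largest part of this sum (mean 4.34 CPM in 1X glucose, against 1.17 for *Foxa2* and 0.438 for *Shh*). The sum can therefore hide changes in the other genes. The 3 were *Foxa2*, *Tekt1* and *Chrd* (edgeR F test, adjusted p = 5.33e-06, 0.00129 and 0.0390). *Shh* was not called (adjusted p = 0.131), with 2, 22 and 32 counts in 1X glucose in passages 13, 15 and 16. The part of cell composition in the members' passage differences was not tested.

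In 2-DG the passages did not follow this order for the targets. *Ptch1* and *Gli1* in 2-DG lay above the 3 glucose libraries in passage 13 and below all of them in passages 15 and 16, as the plot by passage shows. The margin of *Ptch1* in passage 13 was narrow, at 83.2 CPM against 72.2 to 82.9 CPM in the glucose libraries. For *Gli1*, 2-DG minus the mean of the glucose libraries was 0.52, −0.84 and −1.19 on the log2 scale in passages 13, 15 and 16. For *Ptch1* it was 0.076, −0.19 and −0.37. For *Gas1* it was 0.83, 0.10 and −0.02. These values prompted a test of the difference between passages, which is therefore no independent support for them. Its spread comes from how the 3 glucose groups differed from each other within the passages, since each passage has 1 library of 2-DG. It called these 3 of the 9 genes, where it called 1.88% of all genes. The adjusted p was 0.0033 for *Gli1*, 0.00779 for *Gas1* and 0.0356 for *Ptch1* (edgeR F test, 4 residual degrees of freedom). The calls depend on the single 2-DG library of passage 13. A fit without it compares the 2-DG effect between passages 15 and 16 only, so it cannot test passage 13. In that fit 0 of 9 were called (edgeR adjusted p = 0.765 for *Gli1*, 0.857 for *Gas1* and 0.73 for *Ptch1*). *Gli1* and *Gas1* kept their calls in the other 11 fits that left out 1 library, and *Ptch1* lost its call in 6 of those 11 (edgeR adjusted p 0.0172 to 0.186 over the 11). *Ptch1* also lost it with no filter on low counts (adjusted p = 0.0971). In a table of each gene's most abundant transcript, none of these 3 was called (adjusted p = 0.0656 for *Gli1*). *Gli1* and *Gas1* have 1 transcript each, so their own counts are the same in that table. Their lost calls there come from the scaling, the estimate of spread and the adjustment of p, which draw on all genes.

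Of the other members, *Cdon*, *Gli2*, *Smo* and *Boc* lay on 1 side of the glucose libraries in each passage. *Cdon* was above all 3 glucose libraries in each passage, by 0.80, 0.40 and 0.29 over their mean, and *Gli2* by 0.34, 0.32 and 0.25. *Smo* was below all 3 in each passage, at −0.084, −0.11 and −0.15 from their mean, and *Boc* likewise, at −0.13, −0.31 and −0.13. *Hhip* was 2.04, 0.27 and 0.73 above the mean, inside the glucose range in passage 15, a swing as wide as that of *Gli1* at far lower counts. *Gli3* was −0.22, −0.075 and −0.069 from the mean, inside the glucose range in passage 15 and below it in the others. For *Cdon* and *Hhip* the difference between passages was not called (edgeR adjusted p = 0.284 and 0.242). Among the marker lists, 6 of 9 presomitic and paraxial mesoderm genes and 3 of 7 primitive streak genes were called by the same test. So were 1 of 8 neural progenitor genes (*Pax6*), 1 of 5 endothelium and blood genes (*Kdr*) and 1 of the 57 pathway genes (*Foxf1*). The part of the marker genes in the members' difference was not tested.

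**Figure D4:**
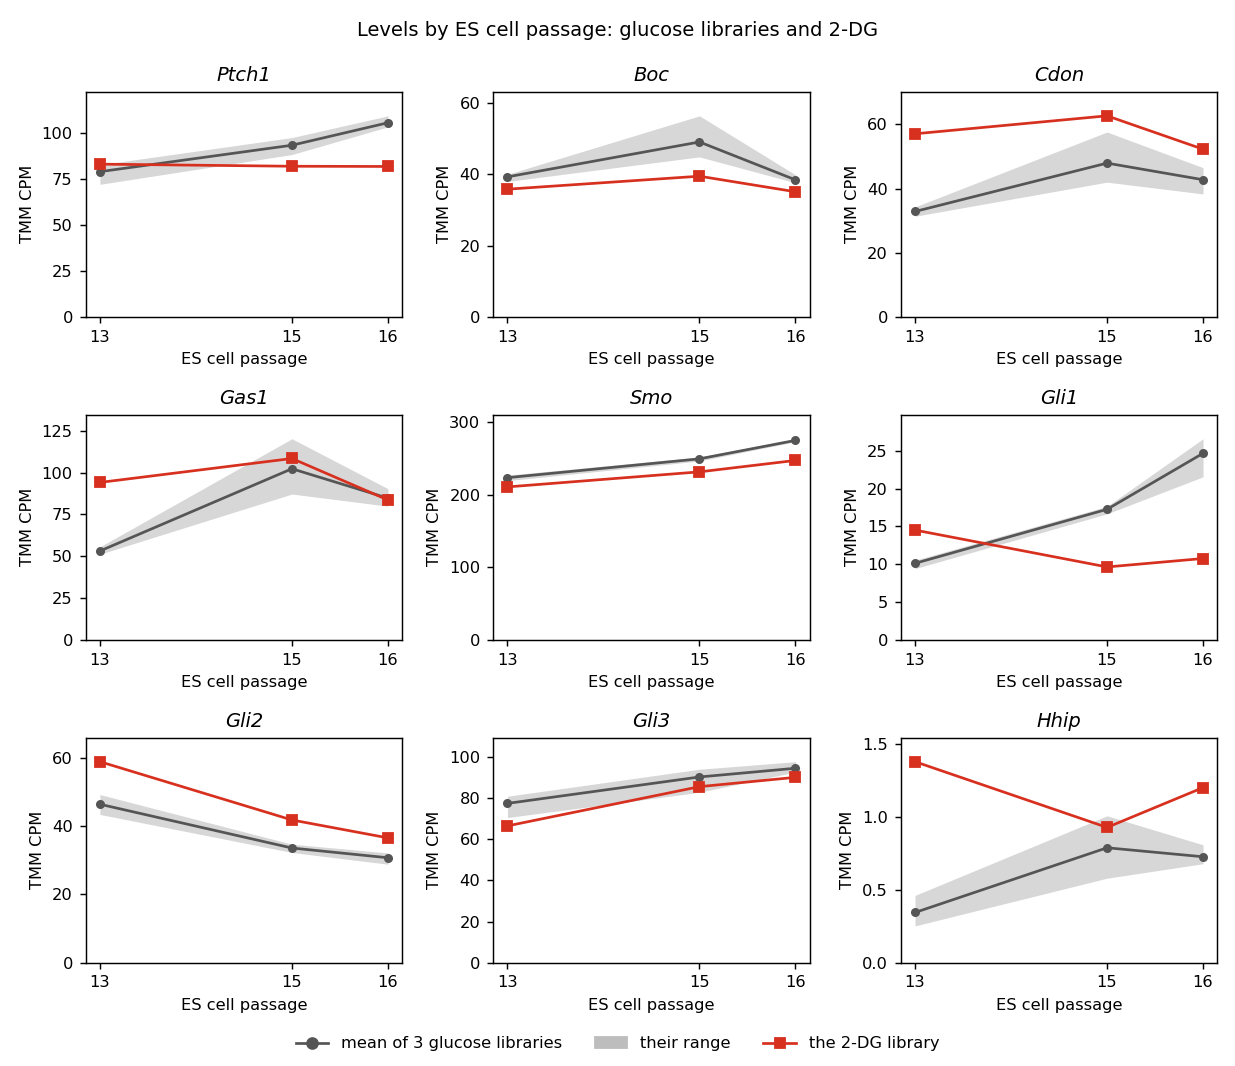
TMM CPM of each gene against ES cell passage, with the mean of the 3 glucose libraries in grey, their range as a band, and the single 2-DG library of each passage in red. *Gli1* and *Ptch1* are highest in passage 16 in the glucose libraries and not in 2-DG, the 2-DG library of *Gas1* is far above the band in passage 13, and *Cdon* and *Gli2* lie above the band throughout.

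The ligands were close to the counting limit. *Shh* had 2, 22 and 32 counts in 1X glucose, 7, 11 and 25 in 0X glucose, 0, 25 and 42 in 3X glucose, and 10, 0 and 7 in 2-DG, in passages 13, 15 and 16. It was thus at its lowest in passage 13 of each glucose group, while in 2-DG passage 13 had the most counts. Neither 2-DG against 1X glucose (edgeR adjusted p = 0.48) nor the difference between passages in 2-DG (adjusted p = 0.177) was called for *Shh*. *Ihh* had 5 to 26 counts per library, and *Dhh* 0 to 8, too few to be tested.

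Other genes of the pathway were taken as 62 listed genes, of which 61 were in the files and 57 were tested. In 2-DG against 1X glucose, 10 of the 57 were called, 4 higher and 6 lower, with a median log2 fold change of −0.01 (0.0023 over all genes). With the block there were 13 higher and 12 lower. Without the 1X glucose library of passage 15, 5 were called. On the most abundant transcript alone 2 were called, *Nkx6-1* and *Mycn*. In 0X and in 3X glucose, 0 of 57 were called.

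Among the genes that make and release the ligands, 2 of 8 tested were higher in 2-DG and none was lower, where 9.12% of all genes were higher and 8.51% lower. With the block 3 were higher and 2 lower, where 21.1% of all genes were higher and 20.2% lower, and these shares hold for the lists that follow. *Scube2*, which carries the lipid-modified ligand away from the cell that makes it, had 45, 19 and 31 counts in 1X glucose and 180, 75 and 68 in 2-DG (log2 fold change 2.07, standard error 0.47, edgeR adjusted p = 0.0131). Its relative *Scube3* had 15.02, 9.94 and 9.81 CPM in 1X glucose and 29.4, 19.9 and 20.8 CPM in 2-DG (1.01, standard error 0.27, adjusted p = 0.0261). Both were higher in 3 of 3 passages, and both lost the call without the 1X glucose library of passage 15 (adjusted p = 0.0566 and 0.0971). *Scube3* also lost it without the 1X glucose library of passage 16 or the 2-DG library of passage 13 (adjusted p = 0.0852 and 0.0942). Another relative, *Scube1*, was lower in 2-DG in each passage and was not called without the block. It had 7.38, 5.68 and 6.83 CPM in 1X glucose and 6.18, 3.38 and 4.18 CPM in 2-DG. *Disp1*, which releases the ligand with Scube proteins, had 28.9, 46.8 and 47.1 CPM in 1X glucose and 23.9, 30.2 and 30.2 CPM in 2-DG. It was called with the block (−0.52, edgeR adjusted p = 0.000228) but not without it (adjusted p = 0.128), unless the 1X glucose library of passage 13 was left out (−0.74, adjusted p = 0.0412).

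Of 19 genes that act between the receptor and the Gli factors, 2 were higher and none was lower, and with the block 6 were higher and 1 lower. Called without the block were *Btrc*, an F-box protein that targets Gli proteins for processing (0.31, adjusted p = 0.0101), and *Mgrn1*, a ubiquitin ligase that lowers Smo at the cell surface (0.18, adjusted p = 0.0408). *Mgrn1* lost its call in 5 of 6 fits that left out 1 library of these groups (adjusted p 0.0734 to 0.171), and *Btrc* without the 1X glucose library of passage 15 (adjusted p = 0.0511). *Sufu*, which holds Gli proteins in the cytoplasm, and *Kif7*, which acts on them at the cilium tip, were not called (0.10 and −0.03, edgeR adjusted p = 0.489 and 0.838). *Sufu* was called with the block (adjusted p = 0.0305).

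Of 17 primary cilium genes, 3 were lower and none was higher in 2-DG, and with the block 5 were lower and 2 higher. *Rpgrip1l* (−0.46, adjusted p = 0.00104) and *Cep290* (−0.36, adjusted p = 0.0108) build the transition zone at the base of the cilium, and *Efcab7* (−0.38, adjusted p = 0.0294) tethers the Evc proteins that act on Smo (edgeR). *Efcab7* lost its call in 5 of 6 fits that left out 1 library of these groups (adjusted p 0.0552 to 0.102). The intraflagellar transport gene *Ift88* was not called (−0.09, adjusted p = 0.741).

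Of 14 further target genes tested, 3 were lower and none was higher, and with the block 5 were lower and 2 higher. *Nkx6-1*, a ventral neural tube factor, had 29, 38 and 42 counts in 1X glucose and 7, 15 and 12 in 2-DG (−1.43, standard error 0.26, edgeR adjusted p = 0.00516). *Mycn*, a growth regulator with many inputs, had 126.4, 146.9 and 146.9 CPM against 74.6, 94.0 and 96.9 CPM (−0.66, adjusted p = 0.00281), and *Bcl2*, a survival gene, was also lower (−0.43, adjusted p = 0.00634). *Foxa2*, a floor plate and endoderm factor, had 16, 36 and 103 counts in 1X glucose and 3, 12 and 25 in 2-DG. Each passage had fewer counts in 2-DG, and only the fit with the block made the call (−1.69, edgeR adjusted p = 9.86e-05, 0.24 without it). The 10 of 57 stand near the 17.6% of all genes called, and nothing particular to the pathway is drawn from them.

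**Figure D5:**
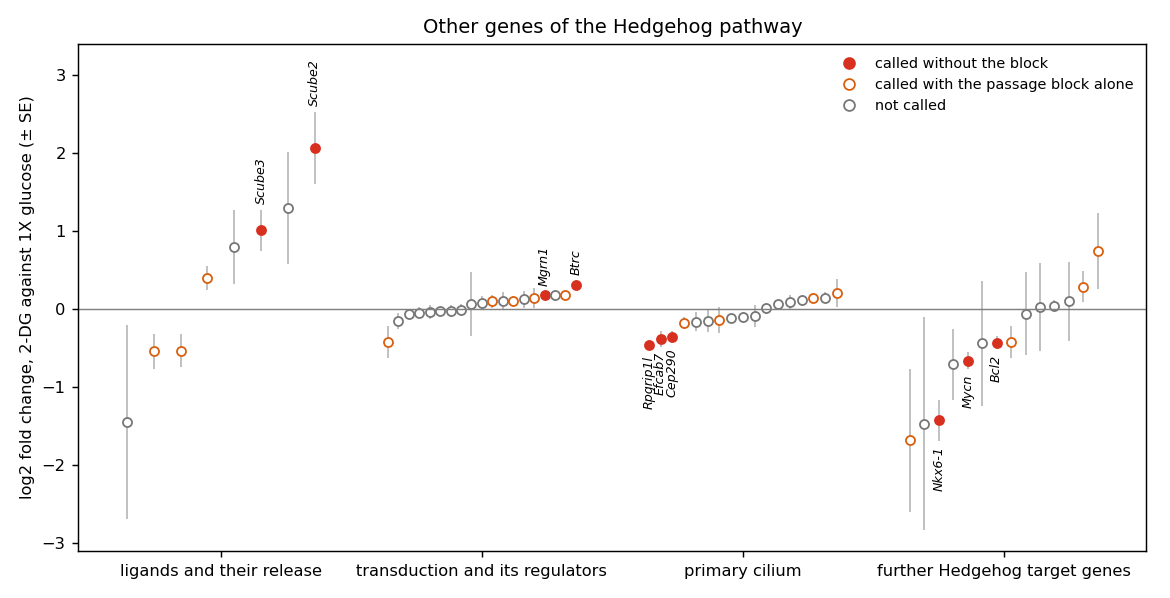
Log2 fold change of 2-DG against 1X glucose, with its standard error, for the tested genes of 4 Hedgehog pathway lists, each list in order of its estimates. Red points are the genes called without the block, open orange points those called with the block alone and open grey points those not called.

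Primitive streak markers summed to 148 to 190 CPM in 2-DG and 239 to 538 CPM in the glucose libraries, and 3 of 7 were called lower and 1 higher in 2-DG (with the block 4 and 1). Neural progenitor markers were called higher in 3 of 8 genes and lower in none (with the block 5 and 1). Presomitic and paraxial mesoderm markers were called in 0 of 9, and with the block 3 were lower. Node, notochord and floor plate markers were called lower in 2 of 7 genes and higher in 1 (with the block 3 and 1). Their sum was 8.72 to 10.2 CPM in 2-DG, inside the 7.42 to 11.4 CPM of the glucose libraries. The notochord gene *Noto* had 9, 8 and 15 counts in 1X glucose and 0 in each 2-DG library. *Chrd* of the same list was higher in 2-DG, at 7.51 ± 0.820 CPM against 4.34 ± 1.23 CPM in 1X glucose (SD, n = 3). No gene was called for endothelium and blood (5 genes, 3 lower with the block), pluripotent cells (5 genes, 3 higher with the block) or feeder fibroblasts (3 tested, 1 higher and 1 lower with the block). Of 5 endoderm genes 1 was higher, and with the block 3 were higher and 1 lower. Part of these lists is shared with the pathway, since *Shh* and *Foxa2* stand in both. The part of cell composition in the members' differences with 2-DG was not tested.

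How StringTie split the counts of a gene between transcripts varied between libraries for *Gli2*, *Cdon*, *Gli3* and, in 1 library, *Ptch1*. It gave at least 88.3% of the *Gli2* counts of every library to 1 transcript, and which one varied between libraries. In 1X glucose, 99.5% went to the curated transcript in passage 15, and 90.7% and 90.8% to a model transcript in passages 13 and 16. For *Cdon*, 82.9% to 90.6% of counts in 1X glucose went to 1 model transcript, which had 0 counts in the 2-DG library of passage 13, where 93.7% went to the curated transcript. With the most abundant transcript alone, the log2 fold change of *Cdon* in 2-DG was −1.19 (edgeR adjusted p = 0.744) in place of 0.53. *Gli3* had 69.3% to 100% of its counts on 1 transcript. *Ptch1* had 97.8% on 1 transcript over all libraries, but 25.9% on another in the 0X glucose library of passage 15. *Smo* had 98.99% of its counts on 1 transcript, and *Boc*, *Gas1* and *Gli1* have 1 transcript each. Counts per gene are the readout used here, and no statement on isoforms is made. Whether the sums, that of *Cdon* among them, are free of the split was not tested.

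Genes with the most similar levels to each member were found by Pearson's r of log2 (CPM + 0.1) over the 12 libraries, which share passages and treatments, as a description. For *Ptch1* they were *Gata6* (0.94), *Fut4* (0.94) and *Arel1* (0.94), and these remained at 0.94, 0.91 and 0.95 once passage means were subtracted. For *Gli1* they were *Tal1* (0.94), *Tchh* (0.92) and *Rhoj* (0.91). For *Gas1* they were *Fstl1* (0.99), *Pkdcc* (0.98) and *Irx1* (0.97), and for *Cdon* *Anpep* (0.97), *4933431E20Rik* (0.97) and *Abca5* (0.97). For *Smo* they were *Dusp9* (0.98), *Dock11* (0.97) and *Alms1* (0.97), and for *Boc* *Msantd3* (0.95) and *Ppifos* (0.92). For *Gli2* they were *Gm12867* (0.98), *Ctbp2* (0.98) and *Gm30439* (0.98), for *Gli3* *Bicra* (0.98) and *Kpnb1* (0.98), and for *Hhip* *Fam219b* (0.94), *Elovl4* (0.92) and *Abcb1a* (0.92). Within the members, r was 0.91 for *Ptch1* and *Gli1* (0.84 with passage means subtracted) and 0.89 for *Cdon* and *Gas1* (0.89 with passage means subtracted). It was −0.93 for *Smo* and *Gli2* (−0.78 with passage means subtracted).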

How the data were processed

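PolyA RNA of 12 gastruloid libraries was analysed, 3 in each of 4 groups, with groups and passages taken from the titles. The authors deposited estimated counts per RefSeq transcript for each library. Per the labels and the study's methods, reads were trimmed with Trim Galore, aligned to mm10 with HISAT2, freed of duplicates with Picard and assigned to transcripts with StringTie. Versions are not given in the sources used here. Removing duplicates can lower the counts of abundant genes. Whether a gene's sum is free of StringTie's split between transcripts was not tested. Deposited tables of DESeq2 means, fold changes and p-values (3 tables) were not used.

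All 120312 transcripts were named from RefSeq GRCm38.p6, and their counts, whole numbers, were summed per symbol. edgeR 4.0.16 (R 4.3.3, limma 3.58.1) was run with filterByExpr, TMM factors and all 4 groups in 1 fit without a block. DESeq2 1.42.0 was an alternative. Standard errors were taken from the quasi-likelihood F. The other alternatives were the passage block, no filter, median-of-ratios factors, the most abundant transcript, only 2 groups and each library left out.

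Passages pair the libraries, as the labels give 1 passage to 1 library of each group. Deviations from group means correlated at 0.114 to 0.661 in the 18 same-passage pairs and at −0.477 to 0.223 in pairs of different passage and group. At most 9.67% of values were identical between libraries. The depth, 31902471 to 45956080 counts, leaves *Hhip* and the ligands with few counts. Transcript lengths are from GENCODE M21. The scripts were tested on simulated data. The text names all 9 members with every library, pathway genes that were called or bear on a member, and for each member the 3 genes with the highest r, except for items that are not reported here. The members and lists were chosen with earlier results of these data known.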

Additional observations from a re-analysis of the deposited data

Results flagged for a closer look

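The difference between 2-DG and the glucose libraries may vary between the 3 ES cell passages for 3 of the 9 genes, which were called by an edgeR F test of that difference over all genes. For *Gli1* the 2-DG library had 14.5 CPM against 9.43 to 10.5 CPM in passage 13, 9.64 against 16.7 to 17.7 CPM in passage 15, and 10.8 against 21.6 to 26.6 CPM in passage 16 (adjusted p = 0.0033, edgeR). For *Gas1* it had 94.1 CPM against 51.2 to 55.6 CPM in passage 13, and lay within the glucose range in passages 15 and 16 (adjusted p = 0.00779, edgeR). For *Ptch1* it had 83.2, 82.0 and 81.9 CPM while the glucose means were 79.1, 93.5 and 105.7 CPM (adjusted p = 0.0356, edgeR). The test was prompted by these values and is no independent support for them. Each passage has 1 library of 2-DG, and the spread comes from the 3 glucose groups. Without the 2-DG library of passage 13, where only passages 15 and 16 are compared, none of the 3 was called (edgeR adjusted p 0.73 to 0.857). On each gene's most abundant transcript none was called either. *Gli1* and *Gas1* have 1 transcript each and so the same counts, and their lost calls come from steps of the fit that draw on all genes. *Ptch1* also lost its call with no filter on low counts (adjusted p = 0.0971) and in 6 of the other 11 fits that left out 1 library. DESeq2 called all 3, but the share of all genes that it called in this test was not computed, so nothing is drawn from this count.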

How the results depend on the processing

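For 2-DG against 1X glucose, the passage block gave 7001 genes in place of 2990, 4 members in place of 0 and 25 pathway genes in place of 10. The most abundant transcript gave 653 genes and 2 pathway genes, a fit of only these groups 1896 genes, and DESeq2 called 1 member. Leaving out 1 library gave 1734 (without 1X glucose passage 15) to 2352 genes, 1738 without 2-DG passage 15, 1960 without 2-DG passage 13, 0 members each time and 5 to 9 pathway genes. For 2-DG against 0X glucose, the block gave 7305 genes in place of 3207, 6 members and 30 pathway genes in place of 14. The most abundant transcript gave 775 and 3, only these groups 8 pathway genes, and leaving out 1 library 2051 (without 0X glucose passage 15) to 2619 genes, with 2072 without 2-DG passage 15, and 7 to 10 pathway genes. For 0X glucose, a fit of only the groups compared called 0 genes, DESeq2 12, and leaving out 1 library 1 to 3. For 3X glucose, the most abundant transcript and DESeq2 called 2 each. The block changed no member's call in 0X or 3X glucose.

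The most abundant transcript left 2 members that differed between passages in place of 7, and 1 (*Cdon*) whose 2-DG effect differed between passages in place of 3. Leaving out 1 library gave 6 to 9 and 0 to 3, with 0 without 2-DG passage 13. With the most abundant transcript the sign changed for *Cdon* (−1.19 against 1X and −1.08 against 0X glucose, the reads having moved to other transcripts), for *Mgrn1* (−0.32), in 0X glucose for *Ptch1* (−0.0070), *Cdon* (−0.11), *Gli2* (−0.031) and *Gli3* (−0.088), and in 3X glucose for *Gli2* (−0.60). Without a filter it changed in 3X glucose for *Boc* (−0.0050) and *Smo* (−0.0034).

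Leaving out 1 library changed the sign of estimates near 0 that were never called, with these log2 ranges. In 0X glucose they were −0.083 to 0.23 (*Boc*), −0.0018 to 0.39 (*Cdon*), −0.11 to 0.42 (*Gas1*), −0.24 to 0.41 (*Gli1*), −0.19 to 0.19 (*Gli2*), −0.019 to 0.21 (*Gli3*), −0.31 to 0.33 (*Hhip*) and −0.090 to 0.076 (*Smo*). In 3X glucose they were −0.077 to 0.075 (*Boc*), −0.20 to 0.023 (*Cdon*), −0.33 to 0.087 (*Gas1*), −0.34 to 0.36 (*Gli1*), −0.15 to 0.24 (*Gli2*), −0.014 to 0.22 (*Gli3*), −0.023 to 0.64 (*Hhip*), −0.044 to 0.22 (*Ptch1*) and −0.069 to 0.097 (*Smo*). Against 1X glucose in 2-DG they were −0.16 to 0.073 (*Gli3*) and −0.23 to 0.036 (*Ptch1*), and against 0X glucose −0.14 to 0.39 (*Gas1*). Except for the construction of the transcript setting, the cause was not tested. Counts of 8 to 47 limit *Hhip*.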
